A study of Rattus norvegicus with 16 samples.

Results

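G protein and cyclic nucleotide signalling genes were followed in the rat retina and pineal gland on an oligonucleotide expression array. They were the G protein alpha, beta and gamma subunits, regulators of G protein signalling (RGS proteins), adenylyl and guanylyl cyclases, cyclic nucleotide phosphodiesterases, protein kinase A and G subunits and A-kinase anchoring proteins. Members were taken by gene symbol from the array's annotation, leaving out Gnb1, Pde4b and Pde6d. This gave 91 probe sets for 66 genes, out of 8740 probe sets and 4736 named genes on the array. A probe set is the group of short oligonucleotides that together measure 1 transcript. By role there were 9 alpha, 4 beta and 5 gamma subunits, 9 RGS proteins, 7 adenylyl cyclases, 8 guanylyl cyclases, 10 phosphodiesterases, 6 protein kinase A subunits, 1 protein kinase G and 7 anchoring proteins.

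The series held 4 pineal arrays, 1 each at CT12, ZT12, CT6 and ZT6, and 12 retina arrays, 3 at each of the same points. Zeitgeber time (ZT) is counted from lights on in a light-dark cycle, and circadian time (CT) is the animal's own time in constant conditions, by the usual meaning of the terms. The labels did not describe the lighting, the strain, the age or how many animals gave each sample, and they did not say that arrays 1 to 3 of a condition came from separate animals, so the p-values measure the spread between these arrays, which may be technical. One pineal array was titled hour 12 but described as 6.0 h, and its title was used. The source field read eye for retina arrays 1 and 2 and for 3 of the pineal arrays, and brain for retina arrays 3 and for pineal ZT12.

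A ligand-bound receptor makes a G protein alpha subunit exchange GDP for GTP and part from its beta-gamma pair. The stimulatory subunit Gnas turns adenylyl cyclases on, the inhibitory Gnai subunits turn them off, and RGS proteins speed the return of alpha to its resting state. Cyclic AMP releases the catalytic subunits of protein kinase A from their regulatory subunits, anchoring proteins place the kinase in the cell, and phosphodiesterases end the signal. In the rat pineal gland noradrenaline acts through this route to drive night-time melatonin synthesis, and in photoreceptors a related route lowers cyclic GMP in light.

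The mean log2 intensity of the 6 pineal markers measured was 12.23 to 12.91 on pineal arrays and 7.02 to 8.46 on retina arrays. Of these, 3 had a mean over all 16 arrays, 12 of them retina, that was high enough to test. The rest count only in the means above. The tested markers did not all point one way: Gch1 (7.71 ± 0.26, SE) and Asmt (4.84 ± 0.37), both enzymes, were higher in the pineal, while Adrb1, the beta-1 adrenergic receptor, was lower (-3.57 ± 0.39). Adrb1 averaged 6.53 in the pineal and 10.10 in the retina, so it entered the test through the retina arrays. Each of 4 blood markers was higher in the pineal, with a median difference of 1.13. Rod markers, 7 of them, lay at 12.61 to 12.96 on pineal arrays and at 15.05 to 15.90 on 11 of the retina arrays. The remaining retina array, CT12 array 1, stood apart, with rod markers at 11.66, ganglion cell markers at 9.66 against at least 12.24 on the other retina arrays, and lens markers at 16.94, the highest of all arrays. Its median rank correlation with the other retina arrays was 0.699, against 0.918 to 0.954 for each of the rest. For members, values without it are given where they differ in their call or by more than about 1.5 times. Lens markers ranged from 10.91 to 16.94 over the retina arrays and from 9.09 to 9.53 over the pineal arrays.

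Pineal and retina differed in most signalling probe sets bright enough to test. The stimulatory alpha subunit Gnas on one of its probe sets, the cyclase Adcy2, the type II regulatory subunit Prkar2b and the anchoring protein Akap11 were 6.40 to 15.1 times higher in the pineal. The beta subunit Gnb5 and the regulator Rgs8 were 28.1 and 18.5 times lower. Of 61 member probe sets bright enough to test, 40 passed (limma, tissue with condition as a term, adjusted p under 0.05), 16 higher and 24 lower in the pineal. That is 65.57% of the members, while 75.8% of all 5244 tested probe sets passed, 39.4% higher and 36.4% lower. The median difference was -0.41 on the log2 scale for members and 0.09 for all probe sets. On intensities as deposited, without quantile normalization, the split was 10 higher and 34 lower among members and 1621 higher and 2279 lower among all probe sets, whose median moved to -0.23. With arrays scaled to a common median it was 18 higher and 23 lower among members and 2352 higher and 1737 lower among all, whose median was 0.28. In 11 of the 40 called members, 10 of them lower in the pineal, the mean of the lower tissue lay under the limit for testing, a mean log2 intensity of 8.82 over all 16 arrays, so they entered the test through the other tissue and had to differ. The 1 higher was Prkar2b. The 10 lower were Akap12 on U23146cds_s_at, Rgs12, Adcy6, Pde2a, Gnaz on J03773_s_at, Prkacb on D10770_s_at and both probe sets of Gna12 and of Rgs8. With 1 probe set per gene, the brightest, 14 of 46 genes were higher, 14 were lower and 18 did not pass. In whole tissue, fewer cells of a type and less RNA per cell cannot be told apart. The plot of differences by role shows the 61 probe sets.

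**Figure D1:**
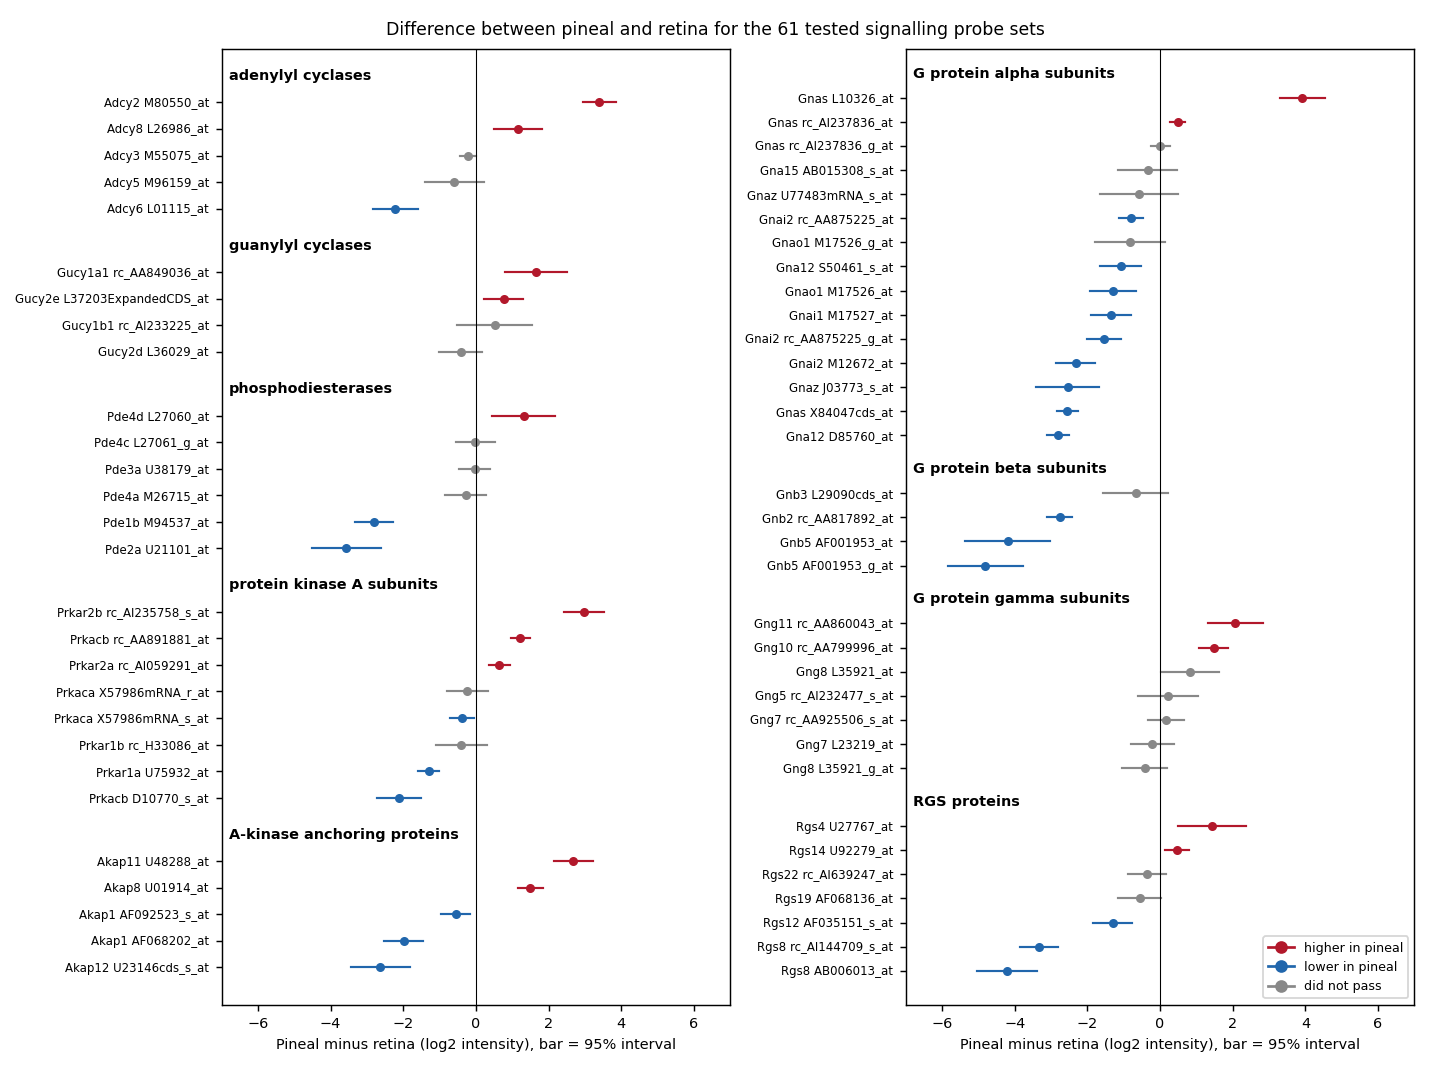
Difference in log2 intensity between pineal and retina (points) with 95% intervals (bars) for the 61 tested probe sets, ordered by role. Red points were higher in pineal (16), blue points lower (24) and grey points did not pass. Gnas and Prkacb have probe sets on both sides of 0.

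Sequences are shown around a listed start of the 2 most raised and the 2 most lowered genes, each by its brightest probe set. RefSeq's table for build GRCr8 gave 250 bases before to 50 after the start, and 50 member genes had an entry. Capitals mark the core of the cyclic AMP response element, TGACG or its reverse CGTCA, and the Crx and Otx core, TAATCC or GGATTA.

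Adcy2, chr1:36203804-36204103, plus strand:
Adcy2: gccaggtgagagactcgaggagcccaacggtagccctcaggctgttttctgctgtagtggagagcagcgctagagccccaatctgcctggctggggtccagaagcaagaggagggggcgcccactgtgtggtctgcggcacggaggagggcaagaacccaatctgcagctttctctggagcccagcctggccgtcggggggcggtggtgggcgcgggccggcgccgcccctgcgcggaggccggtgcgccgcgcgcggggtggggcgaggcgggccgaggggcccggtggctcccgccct
Prkar2b, chr6:54381362-54381661, minus strand:
Prkar2b: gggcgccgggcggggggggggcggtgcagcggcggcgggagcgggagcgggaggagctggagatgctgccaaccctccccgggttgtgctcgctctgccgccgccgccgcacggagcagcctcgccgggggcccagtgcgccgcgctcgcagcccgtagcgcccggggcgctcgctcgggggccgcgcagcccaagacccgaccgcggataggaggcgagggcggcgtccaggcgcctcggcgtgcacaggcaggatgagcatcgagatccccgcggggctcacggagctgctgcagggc
Gnb5, chr8:84956379-84956678, plus strand:
Gnb5: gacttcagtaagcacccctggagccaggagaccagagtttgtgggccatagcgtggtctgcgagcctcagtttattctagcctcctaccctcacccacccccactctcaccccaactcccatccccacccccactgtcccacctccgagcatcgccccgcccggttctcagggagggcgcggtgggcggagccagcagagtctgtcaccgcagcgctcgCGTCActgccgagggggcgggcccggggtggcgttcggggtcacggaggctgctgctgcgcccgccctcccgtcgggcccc
Rgs8, chr13:68366648-68366947, plus strand:
Rgs8: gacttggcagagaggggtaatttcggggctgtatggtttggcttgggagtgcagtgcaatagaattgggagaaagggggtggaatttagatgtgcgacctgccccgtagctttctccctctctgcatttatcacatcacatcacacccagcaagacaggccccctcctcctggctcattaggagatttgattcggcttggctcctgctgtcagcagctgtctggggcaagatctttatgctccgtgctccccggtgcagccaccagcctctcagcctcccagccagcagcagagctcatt

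The Gnb5 window held 1 response element core, and the other 3 windows held neither motif. The Rgs8 window lay inside the span of its gene, which runs from 68355078 to 68399412. The Prkar2b window lay mostly inside its gene, which runs from 54291143 to 54381639. For Rgs8 and Prkar2b the windows therefore do not show what lies upstream of the whole gene, and which start is used was not tested. Among all 33469 promoters in the table, 21.2% held the response element core on either strand, 7.17% the Crx and Otx core and 1.83% the full element TGACGTCA, which contains both forms of the core. Among the 61 entries of member genes the shares were 23.0%, 4.92% and 1.64%. The 1 member promoter with the full element was that of Gnao1. A match describes these letters only.

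Among the G protein alpha subunits, 15 probe sets for 7 genes were tested, and 2 were higher and 9 lower in the pineal. That is 13.3% and 60%, against 39.4% and 36.4% of all tested probe sets. Gnas was measured by 4 probe sets that did not agree. L10326_at read 15.68, 15.45, 15.43 and 15.05 at CT12, ZT12, CT6 and ZT6 in the pineal, against 10.05 to 12.14 in the retina (median 11.51), all on the log2 scale. Every pineal array was above every retina array, with a difference of 3.92 ± 0.29 (SE, 15.1-fold, adjusted p = 1.8e-08). X84047cds_at went the other way, at 12.22, 12.05, 12.76 and 12.17 in the pineal against 14.47 to 15.16 in the retina (median 14.86), a difference of -2.56 ± 0.13. The 2 others were the brightest: rc_AI237836_at was 0.48 ± 0.10 higher in the pineal, with 15.56, 15.70, 15.96 and 15.82 against 15.11 to 15.44 (median 15.28), and rc_AI237836_g_at did not differ beyond its spread, at 16.51 to 17.01 in the pineal and 16.26 to 17.14 in the retina (difference 0.00, 95% interval -0.26 to 0.26). The Gnas locus is known to produce several transcripts, and which of them each probe set reads was not tested.

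The inhibitory subunits were lower in the pineal on each of their 4 probe sets. For Gnai2, M12672_at read 10.09, 10.16, 10.50 and 10.66 at CT12, ZT12, CT6 and ZT6 in the pineal, against 11.64 to 13.49 in the retina (median 12.66). No arrays overlapped, and the difference was -2.33 ± 0.25 (SE, adjusted p = 8.7e-07). Its other probe sets differed by -1.55 ± 0.22 and -0.81 ± 0.15, the smaller of which missed the threshold when arrays were scaled to a common median (adjusted p = 0.617). Gnai1 averaged 8.88 ± 0.43 in the pineal and 10.24 ± 0.48 in the retina (SD, n = 4 and 12), a difference of -1.36 ± 0.26 (SE). Gna12, an alpha subunit of the G12 family, read 8.01, 8.13, 7.53 and 8.05 in the pineal against 10.26 to 11.32 in the retina (median 10.75) on D85760_at, and was 7.01-fold lower without overlap. Its dimmer probe set S50461_s_at differed by -1.09 ± 0.26. Both entered the test through the retina arrays.

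Gnaz, a pertussis toxin-insensitive relative of the inhibitory subunits, had 1 probe set that passed and 1 that did not. J03773_s_at read 8.43, 7.31, 8.45 and 8.40 in the pineal against 8.74 to 11.58 in the retina (median 10.73), a difference of -2.55 ± 0.41. That probe set entered the test through the retina arrays. U77483mRNA_s_at averaged 10.71 ± 0.44 in the pineal and 11.28 ± 1.04 in the retina (SD). Its adjusted p was 0.301 with CT12 array 1 and 9.0e-05 without it, when the difference was -0.88 ± 0.15 (SE). Gnao1, the abundant neuronal subunit, behaved likewise: M17526_at differed by -1.30 ± 0.30, while the brighter M17526_g_at missed the threshold (adjusted p = 0.104) and passed without CT12 array 1 (-1.10 ± 0.14, adjusted p = 5.8e-06). Gna15 did not pass. The olfactory subunit Gnal and the taste subunit Gnat3 lay below the limit for testing.

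The beta subunits held the widest gap. Gnb5, the beta subunit known for pairing with RGS proteins in place of a gamma subunit, read 10.09, 9.99, 9.55 and 9.45 at CT12, ZT12, CT6 and ZT6 in the pineal on AF001953_g_at. In the retina it lay between 11.46 and 15.12 with a median of 14.90, and the lowest value was that of CT12 array 1. The difference was -4.81 ± 0.48 (SE, adjusted p = 4.7e-07), or 28.1-fold, and -5.06 ± 0.15 without that array. The other Gnb5 probe set, at 10.13, 9.79, 9.28 and 9.94 in the pineal against 10.48 to 14.67 (median 14.35) in the retina, differed by -4.20 ± 0.55. Gnb2 read 9.83, 9.79, 10.48 and 10.51 in the pineal against 12.65 to 13.23 in the retina (median 12.91), 6.81-fold lower with no overlap. Gnb3, the beta subunit of the cone G protein, averaged 11.84 ± 0.25 in the pineal and 12.51 ± 0.93 in the retina (SD) and missed the threshold (adjusted p = 0.148). Without CT12 array 1 it passed, with a difference of -0.91 ± 0.16 (SE, adjusted p = 0.000116).

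Of 7 gamma probe sets, 2 were higher in the pineal and none passed as lower, although on intensities as deposited Gng8 on L35921_g_at did (adjusted p = 0.00507, against 0.192). Of all tested probe sets, 39.4% were higher and 36.4% lower. Gng11 read 10.71, 10.87, 11.38 and 11.28 in the pineal against 7.68 to 10.12 in the retina (median 9.07), a difference of 2.07 ± 0.35. Gng10 read 12.59, 12.56, 12.76 and 12.79 in the pineal against 10.56 to 12.06 in the retina (median 11.18), a difference of 1.47 ± 0.19. In both genes the tissues did not overlap. Gng5, Gng7 and Gng8 did not pass.

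RGS proteins split. Rgs8 read 7.66, 8.14, 7.85 and 8.27 at CT12, ZT12, CT6 and ZT6 in the pineal on AB006013_at, against 9.28 to 12.85 in the retina (median 12.42). It was 18.5-fold lower (-4.21 ± 0.38, adjusted p = 1.8e-07), and its second probe set, with 6.83, 7.34, 7.11 and 6.46 in the pineal against 8.71 to 10.79 in the retina (median 10.44), differed by -3.33 ± 0.24. Neither probe set overlapped between tissues. The pineal mean of both lay under the limit for testing, so they entered through the retina arrays and had to differ. Rgs12 was lower, with a difference of -1.30 ± 0.25, and likewise entered through the retina arrays. Rgs4, a regulator of inhibitory and Gq-type subunits, read 10.32, 9.92, 10.85 and 10.56 in the pineal against 6.23 to 9.96 in the retina (median 9.23), a difference of 1.44 ± 0.43, and Rgs14 was higher by 0.47 ± 0.15. On intensities as deposited neither of these gains passed (adjusted p = 0.0618 for Rgs4 and 0.783 for Rgs14). Over the alternatives run, Rgs4 missed the threshold in 2 and Rgs14 in 5. Rgs9, which closes the photoreceptor response together with Gnb5, lay below the limit for testing because it was dim in the retina. It read 10.96, 11.48, 10.77 and 10.97 in the pineal and 6.77 to 9.55 in the retina (median 7.03), with every pineal array above every retina array. Fitted with no filter on low values, it was 3.63 ± 0.40 higher in the pineal (adjusted p = 2.7e-06), in a fit where 61.1% of all probe sets passed.

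Adenylyl cyclases moved in both directions. Adcy2, a form stimulated by beta-gamma pairs, read 15.47, 15.42, 15.23 and 15.27 at CT12, ZT12, CT6 and ZT6 in the pineal, against 11.11 to 12.40 in the retina (median 12.08). The tissues did not overlap, and the difference was 3.40 ± 0.21 (SE, 10.5-fold, adjusted p = 2.7e-09). Adcy8, stimulated by calcium and calmodulin, read 10.79, 10.59, 9.90 and 8.69 in the pineal against 8.26 to 9.61 in the retina (median 8.85). Its difference of 1.15 ± 0.31 passed (adjusted p = 0.00347), although pineal ZT6 lay within the retinal range, and missed the threshold on intensities as deposited (adjusted p = 0.0546). Adcy6, inhibited by calcium, read 8.36, 7.63, 8.24 and 7.34 in the pineal against 8.74 to 10.77 in the retina (median 10.28), 4.65-fold lower with no overlap. It entered the test through the retina arrays. Adcy3 and Adcy5 did not pass.

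Of 4 tested guanylyl cyclase probe sets, 2 were higher and none lower, against 39.4% and 36.4% of all tested probe sets. Gucy1a1, the alpha subunit of the nitric oxide-sensitive cyclase, read 14.06, 13.78, 15.15 and 15.23 in the pineal, against 10.32 to 13.43 in the retina (median 13.12), a difference of 1.65 ± 0.39. Its partner Gucy1b1 averaged 13.13 ± 0.09 in the pineal and 12.62 ± 1.06 in the retina (SD) and did not pass (adjusted p = 0.339). The membrane cyclase Gucy2e, at 10.52, 10.56, 10.45 and 10.03 in the pineal against 8.47 to 10.19 (median 9.75) in the retina, differed by 0.76 ± 0.25 and did not pass on intensities as deposited (adjusted p = 0.349). It missed the threshold in 3 of the alternatives run. Gucy2d, a further membrane form, averaged 9.56 ± 0.07 in the pineal and 9.98 ± 0.65 in the retina (SD), with an adjusted p of 0.184 that became 0.00633 without CT12 array 1 (-0.55 ± 0.16, SE). Gucy2f, a photoreceptor cyclase, lay below the limit for testing, with 6.16, 8.32, 5.78 and 6.15 in the pineal and 6.05 to 10.17 in the retina (median 8.90).

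The phosphodiesterases Pde2a and Pde1b were lower in the pineal. Pde2a, which cyclic GMP stimulates, read 6.43, 6.60, 6.44 and 6.39 in the pineal, near the bottom of the scale, against 8.52 to 12.26 in the retina (median 9.99), with a difference of -3.56 ± 0.45 (SE, adjusted p = 5.3e-06) that lay between -3.92 and -3.02 over the alternatives run. No fold is given for so dim a value, as the deposited intensities carry no detection calls. Pde2a entered the test through the retina arrays and had to differ. Pde1b, stimulated by calcium and calmodulin, read 8.18, 10.27, 9.76 and 9.47 in the pineal against 11.70 to 12.56 in the retina (median 12.24), a difference of -2.81 ± 0.24. Neither overlapped between tissues. Pde4d, specific for cyclic AMP, read 11.75, 10.96, 9.18 and 9.82 in the pineal against 8.01 to 10 in the retina (median 9.15). Both hour 12 pineal arrays lay above the retinal range and both hour 6 arrays within it, so the mean difference of 1.32 ± 0.41 (adjusted p = 0.00909) joins unlike hours, and on intensities as deposited it missed the threshold (adjusted p = 0.0802). Pde4d missed the threshold in 4 of the alternatives run. Pde3a, Pde4a and Pde4c did not pass. Pde7a, also specific for cyclic AMP, was too dim in the retina to enter the test, at 9.80 to 10.12 in the pineal and 7.29 to 8.62 in the retina.

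All 6 protein kinase A subunit genes were measured and tested. Prkar2b read 11.86, 10.29, 11.20 and 11.02 in the pineal, against 7.36 to 8.62 in the retina (median 8.18), without overlap. It was 7.93-fold higher (2.99 ± 0.26, adjusted p = 9.6e-08), but every retina array lay under the limit for testing, so it entered the test through the pineal arrays. The type I subunit Prkar1a was 2.47-fold lower, at 12.84 ± 0.10 in the pineal and 14.14 ± 0.27 in the retina (SD), also without overlap. Prkar2a read 10.79, 10.74, 10.18 and 10.67 in the pineal against 9.59 to 10.51 in the retina (median 9.87), a gain of 0.64 ± 0.14 that did not pass on intensities as deposited (adjusted p = 0.221). The catalytic subunit Prkacb had probe sets in opposite directions. The brighter, rc_AA891881_at, read 14.19, 14.16, 14.56 and 14.30 in the pineal against 12.50 to 13.37 in the retina (median 13.24), a difference of 1.22 ± 0.12. The dimmer, D10770_s_at, entered the test through the retina arrays. It read 9.13, 7.50, 9.28 and 9.03 in the pineal against 9.56 to 11.71 in the retina (median 10.99), a difference of -2.12 ± 0.29. Neither overlapped between tissues. Prkaca differed by -0.38 ± 0.15 on its brighter probe set, which did not pass with a common median (adjusted p = 0.48), and did not pass on the other, and Prkar1b passed only without CT12 array 1 (-0.58 ± 0.11, adjusted p = 0.00017, against 0.27 with it). The brighter Prkaca probe set missed the threshold in 4 of the alternatives run.

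Each of the 5 tested anchoring protein probe sets passed, where 75.8% of all tested probe sets did. Akap11 read 14.56, 14.49, 14.17 and 13.71 in the pineal against 10.44 to 11.99 in the retina (median 11.69), 6.40-fold higher. Akap8, a nuclear anchor, read 13.26, 13.19, 13.30 and 13.38 in the pineal against 10.76 to 12.10 in the retina (median 11.87), 2.82-fold higher. Akap1, which anchors the kinase at mitochondria, read 9.60, 9.55, 9.27 and 9.19 in the pineal against 10.11 to 12.08 in the retina (median 11.51), 3.96-fold lower on that probe set, while its second probe set differed by -0.56 ± 0.19. The second missed the threshold in 3 of the alternatives run (adjusted p up to 0.209). Akap11, Akap8 and the first Akap1 probe set did not overlap between tissues. Akap12, a scaffold for protein kinases A and C, read 6.70, 7.01, 7.19 and 6.78 in the pineal against 6.95 to 10.42 in the retina (median 9.68), and CT12 array 1 was the lowest retina array. This Akap12 probe set entered the test through the retina arrays.

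**Figure D2:**
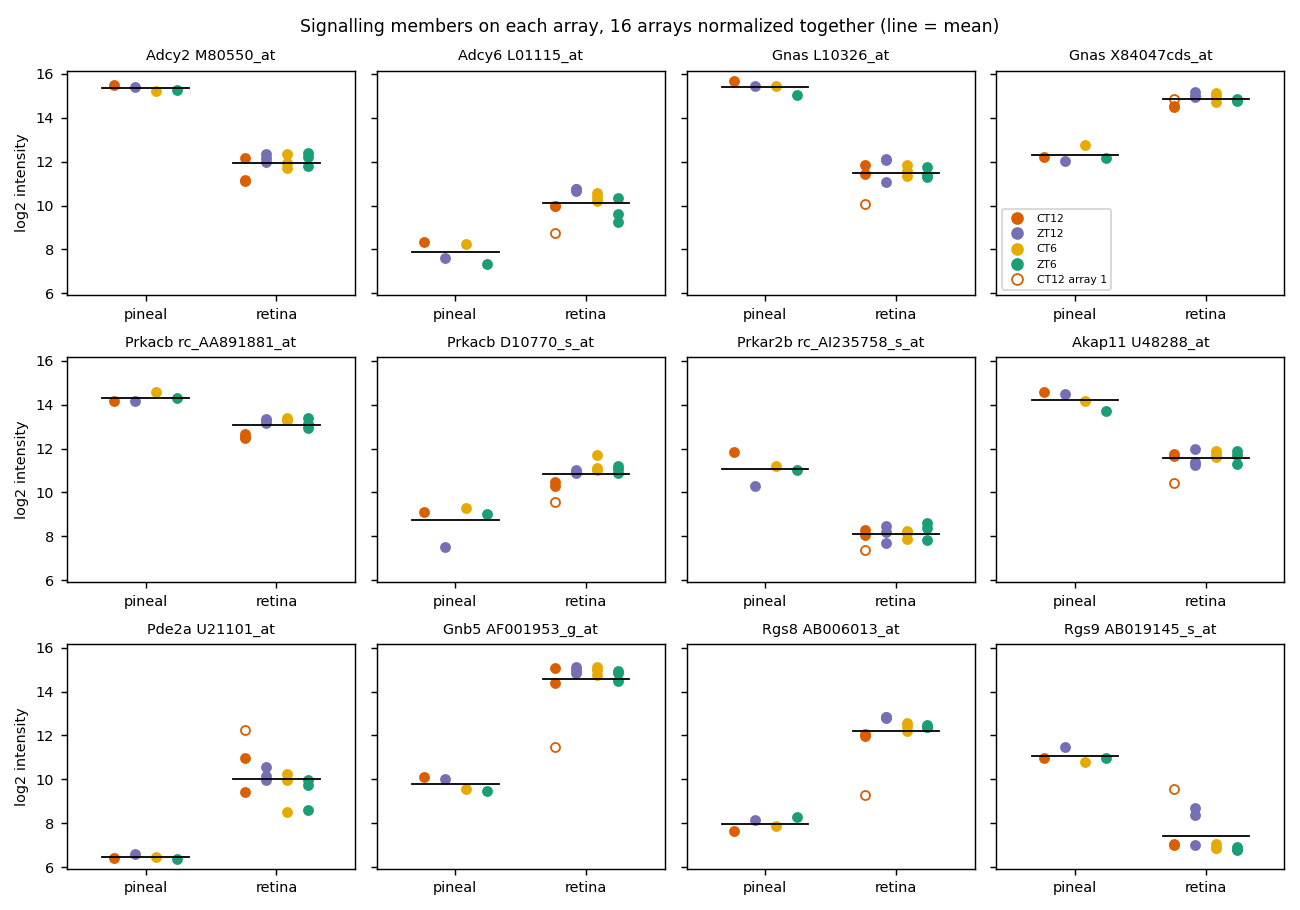
Log2 intensity of 12 member probe sets on each of the 4 pineal arrays (left) and 12 retina arrays (right), coloured by condition, with a line at the tissue mean. The open circle is CT12 array 1. Gnas and Prkacb each appear with 2 probe sets that differ in opposite directions, and Rgs9 is above every retina array in the pineal.

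Counting whole tissues without overlap, all 4 pineal arrays lay above all 12 retina arrays in 10 tested members (16.39%), against 27.2% of all tested probe sets. They lay below all 12 in 17 members (27.87%), against 24.4% of all. Without CT12 array 1, 47 members passed, the 40 above and 7 more, all lower in the pineal: Gnao1 on M17526_g_at, Gnaz on U77483mRNA_s_at, Gnb3, Gucy2d, Prkar1b, Rgs22 and Adcy3. The share of all probe sets that passed in that fit is not given, so the rise is not read as particular to the members.

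Lists of genes that act beside the members are read against the 75.8% of all tested probe sets that passed. Of 8 tested phototransduction partners, 6 were lower in the pineal and none higher, led by arrestin Sag (-3.95 ± 0.55) and the rod channel subunit Cngb1 (-2.89 ± 0.30). Their median was -1.71. Rod markers lay at 12.84 in the pineal and 15.27 in the retina on average, and the part of rod content in the members' differences was not tested. Of 17 receptors of amines, purines and peptides, 6 were higher and 4 lower, among them Adrb1 (at 6.53 ± 0.46 in the pineal and 10.10 ± 0.96 in the retina, SD) and the dopamine receptor Drd2 (-2.85 ± 0.38). Of 14 kinase inhibitors, receptor kinases and other effectors, 5 were higher and 2 lower, led by the phospholipase Plcb1 (3.29 ± 0.18). Of 12 CREB family and cyclic AMP responsive genes, 5 were higher and 4 lower, the largest difference being that of the phosphatase Dusp1 (-3.95 ± 0.54).

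Within the retina, hour 12 was set against hour 6 under ZT and under CT, and CT against ZT at each hour, to ask whether signalling genes vary with the time of day and whether they do so on both time scales. No member passed in any of the 7 comparisons fitted over the 12 retina arrays, with 63 probe sets of 47 genes tested (limma, adjusted p under 0.05). Few probe sets of the whole array passed either: 0.286% in ZT12 minus ZT6, 0.0381% in CT12 minus CT6, 0% in CT6 minus ZT6, 0.61% in CT12 minus ZT12 (0.496% lower), 0.21% in hour 12 minus hour 6, 0% in CT minus ZT and 0.0191% in the difference between the CT and ZT hour effects. An unadjusted p under 0.05 was reached by 3, 18, 1, 25, 4, 3 and 12 members in that order of comparisons, against 8.62%, 27.4%, 5.07%, 26.2%, 17.6%, 11.8% and 16.04% of all probe sets. Leaving out 1 array decided these counts at CT12: without CT12 array 3, 17 members passed in CT12 minus CT6, where 24.9% of all probe sets did, and 20 in CT12 minus ZT12, where 20.4% did, while CT12 array 1 stayed in the fit. The members nearest to the threshold are described next by their values.

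Prkacb was lowest at CT12 on both probe sets. On rc_AA891881_at the 3 arrays read 12.48, 12.52 and 12.65 at CT12, 13.26, 13.27 and 13.10 at ZT12, 13.26, 13.26 and 13.31 at CT6, and 12.90, 13.31 and 13.06 at ZT6. On D10770_s_at they read 9.67, 10.40 and 10.56 at CT12, 11.04, 11 and 11.11 at ZT12, 11.13, 11.19 and 11.77 at CT6, and 11, 11.17 and 11.27 at ZT6. On either probe set all 3 CT12 arrays lay below the other 9. The differences were -0.72 ± 0.14 and -1.15 ± 0.24 in CT12 minus CT6 (SE, adjusted p = 0.0950 and 0.0953), and -0.66 ± 0.14 and -0.84 ± 0.24 in CT12 minus ZT12 (adjusted p = 0.0736 and 0.115). Without CT12 array 1 the differences were -0.68 ± 0.14 and -0.88 ± 0.19 in CT12 minus CT6, and -0.61 ± 0.14 and -0.57 ± 0.19 in CT12 minus ZT12. Over the alternatives run, the adjusted p of the brighter probe set ranged from 0.0108 to 0.247 in CT12 minus CT6 and from 0.00802 to 0.259 in CT12 minus ZT12. In all, 5 of 63 members had every CT12 array below the other 9 (7.94%, against 6.29% of all probe sets), the others being Gnai1 and both probe sets of Rgs8, and 1 had every CT12 array above them, Prkaca on X57986mRNA_r_at (1.59%, against 3.45%).

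Rgs14, an RGS protein that also binds inhibitory alpha subunits directly, was high at CT12 and ZT6 and low at ZT12 and CT6. It read 10.90, 10.53 and 10.75 at CT12, 9.93, 10.20 and 9.93 at ZT12, 10.32, 10.44 and 9.97 at CT6, and 10.59, 10.92 and 10.99 at ZT6. The hour difference was -0.82 ± 0.18 under ZT (adjusted p = 0.122), and the CT hour effect exceeded the ZT one by 1.30 ± 0.26 (adjusted p = 0.115). Without CT12 array 1 the ZT difference passed (-0.82 ± 0.17, adjusted p = 0.0458). Adcy6 ran the other way. It read 8.85, 10.07 and 10.09 at CT12, 10.87, 10.85 and 10.77 at ZT12, 10.49, 10.69 and 10.32 at CT6, and 10.45, 9.74 and 9.37 at ZT6. Its difference was 0.98 ± 0.35 in ZT12 minus ZT6 (adjusted p = 0.417) and -1.16 ± 0.35 in CT12 minus ZT12 (adjusted p = 0.12). Without CT12 array 1 these were 0.98 ± 0.23 (adjusted p = 0.0787) and -0.75 ± 0.26 (adjusted p = 0.179).

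Gucy2d at ZT12 lay below ZT6. It read 8.49, 10.02 and 10.26 at CT12, 9.82, 9.55 and 9.72 at ZT12, 10.13, 10.32 and 10.76 at CT6, and 10.49, 10.90 and 10.52 at ZT6. Under CT, arrays 1 and 2 of CT12 lay below all CT6 arrays and array 3 within their range. All 3 ZT12 arrays lay below all 3 ZT6 arrays, with a difference of -0.94 ± 0.39 (adjusted p = 0.509), which was -0.94 ± 0.18 and passed without CT12 array 1 (adjusted p = 0.0405). Leaving out that array changes the ZT comparison through the shared estimate of spread, in a fit where 1.51% of all probe sets passed. Gnaz turned with the same array. On U77483mRNA_s_at it read 8.50, 11.67 and 12.53 at CT12, 12.10, 11.97 and 12.04 at ZT12, 10.99, 11.24 and 11.22 at CT6, and 11.33, 11.29 and 11.26 at ZT6. Apart from CT12 array 1, every hour 12 array was above every hour 6 array. Without it both Gnaz probe sets passed in hour 12 minus hour 6, at 0.84 ± 0.14 (adjusted p = 0.0208) and 0.60 ± 0.11 (adjusted p = 0.0297), in a fit where 1.3% of all probe sets passed. Rgs8 on AB006013_at passed in CT12 minus ZT12 without it (-0.73 ± 0.13, adjusted p = 0.0337), where 0.61% of all did.

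**Figure D3:**
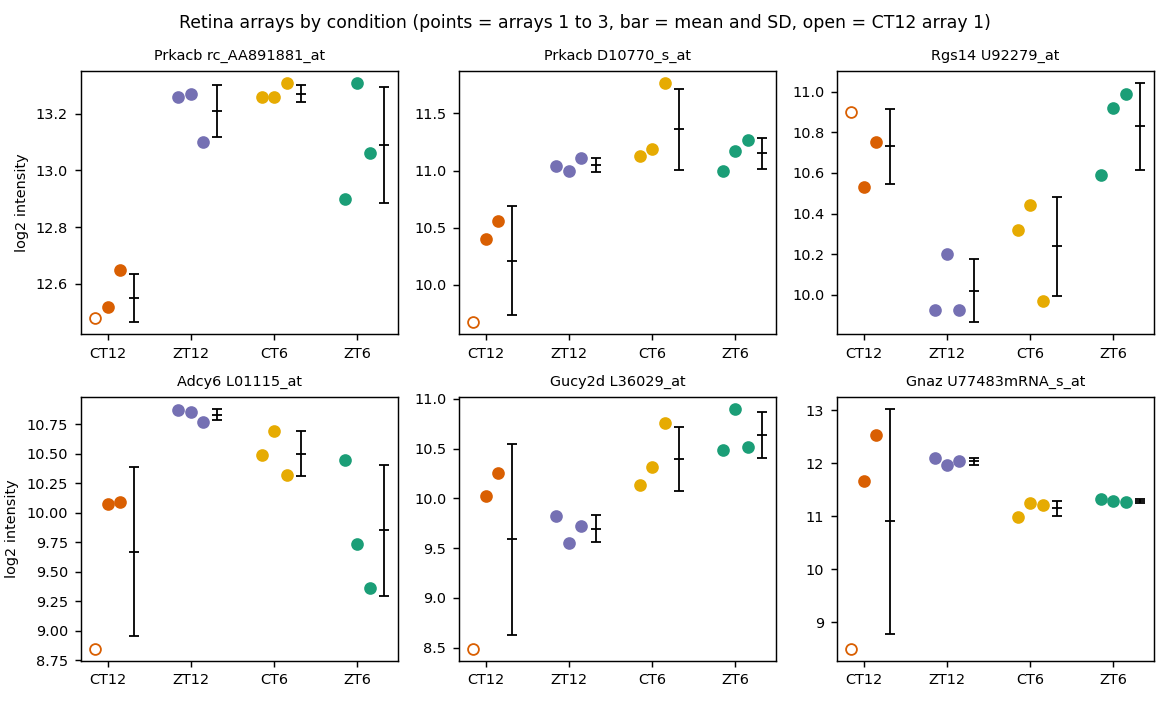
Log2 intensity on the 12 retina arrays at CT12, ZT12, CT6 and ZT6 for 6 member probe sets, with points for arrays 1 to 3, bars for the mean and SD, and an open circle for CT12 array 1. The 3 CT12 arrays are below the other 9 in both Prkacb panels, and CT12 array 1 is the lowest point for Adcy6, Gucy2d and Gnaz.

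Other members with small p-values did not pass either. In hour 12 minus hour 6, Gna12 differed by 0.39 ± 0.13 (adjusted p = 0.228) and Pde2a by 1.02 ± 0.47 (adjusted p = 0.288), or by 0.32 ± 0.12 and 0.69 ± 0.41 without CT12 array 1. In CT12 minus CT6, Akap1 differed by -0.95 ± 0.32, Gnas by -0.49 ± 0.17 on rc_AI237836_g_at and Rgs8 by -0.89 ± 0.31 on rc_AI144709_s_at. Without CT12 array 1 these were -0.63 ± 0.28 for Akap1, -0.51 ± 0.16 for Gnas and -0.49 ± 0.21 for Rgs8. In CT12 minus ZT12, Prkaca differed by 1.09 ± 0.32 on X57986mRNA_r_at, and by 0.65 ± 0.17 without that array. In CT minus ZT, the smallest p-values were those of Prkaca (0.62 ± 0.22), Rgs8 (-0.60 ± 0.22), Prkacb (-0.24 ± 0.10), Prkar1b (-0.73 ± 0.34) and Gng5 (0.68 ± 0.33). Without the array the same genes differed by 0.40 ± 0.12, -0.40 ± 0.14, -0.22 ± 0.09, -0.34 ± 0.10 and 0.40 ± 0.23. In CT6 minus ZT6 they were those of Rgs14 (-0.59 ± 0.18), Adcy6 (0.65 ± 0.35), Pde1b (0.29 ± 0.17), Adcy5 (-0.66 ± 0.41) and Prkar2a (-0.29 ± 0.19). The list was completed by Prkaca on X57986mRNA_s_at (-0.43 ± 0.20) and Pde3a (-0.60 ± 0.29) in ZT12 minus ZT6, and by Prkar2a (0.79 ± 0.27) in the difference between the hour effects.

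The photoreceptor member Gnb3 and the cyclase Gucy2e passed in none of the 7 comparisons, and CT12 array 1 was their lowest array. Gnb3 averaged 12.88 ± 0.07 at ZT12, 12.84 ± 0.12 at CT6 and 12.65 ± 0.21 at ZT6 (SD, n = 3 each), with 9.80, 12.09 and 12.91 on the CT12 arrays. Gucy2e lay at 9.43 to 10.30 on the other 11 arrays and at 8.57 on CT12 array 1. Gucy2f lay at 8.15 to 10.28 on the other 11 arrays and at 6.07 on CT12 array 1. Rgs9 was at 6.83 to 7.12 on 9 of the 12 arrays, at 8.46 and 8.78 on ZT12 arrays 2 and 3, and at 9.66 on CT12 array 1.

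CT12 array 1 was below the other 11 retina arrays in 35 of the 63 tested members (55.56%, against 34.9% of all probe sets) and above them in 14 (22.22%, against 33.1%). The median member deviated by -0.98 from the median of the other arrays, against -0.04 for all probe sets. Each of the guanylyl cyclase and anchoring protein probe sets tested was below. Gnb5, Gnb3, Rgs8 and Gucy1b1 were among the members furthest below, and Pde2a and Gng5 among those furthest above.

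**Figure D4:**
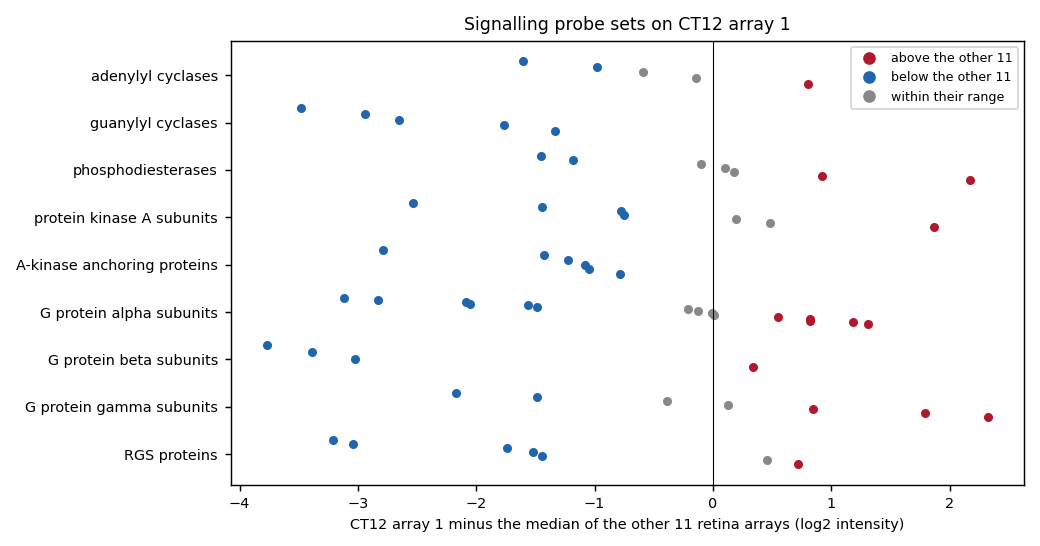
Log2 intensity on CT12 array 1 minus the median of the other 11 retina arrays for each of the 63 tested member probe sets, by role. Blue points lie below all other retina arrays (35), red points above them (14) and grey points within their range (14).

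In hour 12 minus hour 6, 12 of 12 lens markers had a positive difference (median 1.90), while 0 of 7 rod markers (median -0.86) and 0 of 8 ganglion cell markers (median -0.60) did. In CT12 minus ZT12, 11 of 12 lens markers (median 1.92) and 4 of 4 blood markers (median 1.23) had a positive difference, and again 0 of 7 rod markers (median -1.32) and 0 of 8 ganglion cell markers (median -1.13). None of these markers passed in either comparison, and their part in the members' differences was not tested. CT12 array 1 weighs on these medians, which are not given without it. On CT12 arrays 1 to 3, rod markers averaged 11.66, 15.05 and 15.54, against 15.47, 15.60 and 15.52 at ZT12. Ganglion cell markers averaged 9.66, 12.24 and 12.45, against 12.65, 12.60 and 12.78. Lens markers averaged 16.94, 16.63 and 15.01, against 15.69, 13.77 and 13.86. Of 10 tested CREB family and cyclic AMP responsive genes, Egr1 and Fos passed in ZT12 minus ZT6 (5.68 ± 0.69 and 1.89 ± 0.18) and in hour 12 minus hour 6 (3.82 ± 0.48 and 1.25 ± 0.12), both higher at hour 12, and Fos was lower in CT12 minus ZT12 (-1.24 ± 0.18). These are immediate early genes, switched on within minutes of a stimulus. No phototransduction partner, receptor or effector of the lists passed in the retina.

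In the pineal gland, hour 12 and hour 6 could be compared on 1 array each under CT and ZT, so the values carry no test, and the ZT12 array is the one whose description gives hour 6. A difference was described where the log2 intensity as deposited differed by at least 1 in the same direction on both time scales. Pde4d did so on both of its probe sets. On L27060_at it read 11.51 at CT12 against 8.77 at CT6, and 10.64 at ZT12 against 9.48 at ZT6, a gain of 2.75 under CT and 1.16 under ZT. On the dim L27059_s_at it read 7.16 at CT12 against 4.81 at CT6, and 7.55 at ZT12 against 5.21 at ZT6. In the retina the hour difference of L27060_at was -0.19. Among probe sets with a pineal mean past the limit of 8.39, the second member to meet the size was Adcy5, a calcium-inhibited cyclase. On M96159_at it was lower at hour 12 than at hour 6, at 7.40 against 8.66 under CT and 8.21 against 10.07 under ZT. Both hour 12 values lay under that limit, so M96159_at passed it through the hour 6 arrays. The dim rc_AI011727_at differed by 0.40 under CT and -0.76 under ZT. The dim rc_AI044848_s_at differed by -0.80 under CT and -0.08 under ZT, so neither repeated the difference at that size.

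The dim membrane cyclase Gucy2g read 8.57 at CT12 against 5.99 at CT6, and 8.93 at ZT12 against 6.47 at ZT6. The dim regulator Rgs18 read 5.63 at CT12 against 6.92 at CT6, and 6.27 at ZT12 against 9.25 at ZT6. The mean of the 4 blood markers on the same arrays was 12.85 at CT12 against 13.85 at CT6, and 13.41 at ZT12 against 14.52 at ZT6, and its part in Rgs18 was not tested. Together 3 of 91 member probe sets were higher by that measure and 2 lower, against 1.86% and 1.69% of all 8740 probe sets. Among the 54 members past the pineal's 40th percentile, 1 was higher and 1 lower, against 1.53% and 1.03% of all. Just short of the size were Gucy1a1 (-0.93 under CT and -1.30 under ZT), Pde4a on M26715_at (-0.97 and -1.56) and Adcy8 (0.92 and 1.82). Adcy2, the brightest cyclase, differed by 0.32 under CT and 0.17 under ZT.

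**Figure D5:**
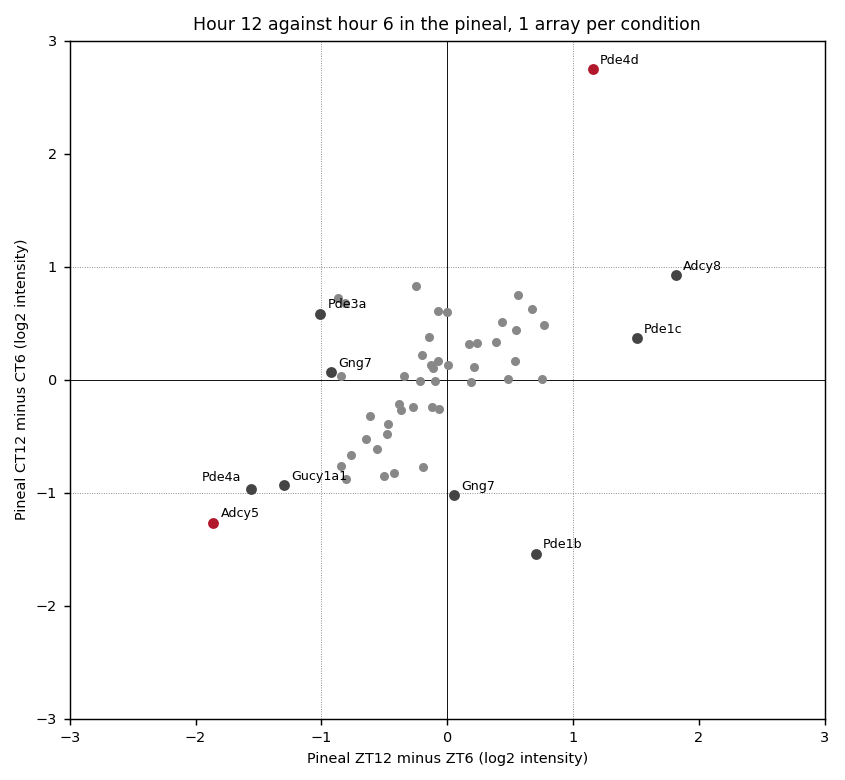
Hour 12 minus hour 6 in the pineal, in log2 intensity as deposited, under ZT (horizontal) and CT (vertical), for the 54 member probe sets past the pineal's 40th percentile. Each difference is between 2 single arrays. Dotted lines mark a difference of 1, and Pde4d (2.75 under CT and 1.16 under ZT) and Adcy5 are the red points beyond both.

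The Pde4d gene has 5 start windows in RefSeq's promoter table, and 2 of them hold the response element core, against 21.2% of all promoters. The window with 2 matches is shown because Pde4d was the member that met the size on both of its pineal probe sets, and it was chosen among the 5 for those matches. Capitals are as above, and which start the pineal uses was not tested.

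Pde4d, chr2:42592499-42592798, plus strand:
Pde4d: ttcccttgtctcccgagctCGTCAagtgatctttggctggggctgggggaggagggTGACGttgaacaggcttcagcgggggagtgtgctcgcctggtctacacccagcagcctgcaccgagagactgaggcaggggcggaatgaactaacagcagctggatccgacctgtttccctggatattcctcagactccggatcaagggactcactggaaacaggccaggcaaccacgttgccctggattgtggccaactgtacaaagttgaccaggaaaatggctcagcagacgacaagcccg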

How the data were processed

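The authors deposited 1 intensity per probe set and array, on a linear scale. The software that summarized the probes is not given in the sources used here, and the mean of each array with the extreme 2% of values at either end left out lay between 2466.3 and 2506.2, so the arrays had been scaled to a common level before they were deposited. Genes were named from the array's platform annotation, which is older than the RefSeq table for GRCr8 in which all 91 member probe sets were found. The 59 control probe sets were removed. Deposited intensities were quantile normalized over 16 arrays for the tissue comparison and over 12 retina arrays for the time comparisons. Then 16 was added to each value and log2 was taken.

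Probe sets with a mean below the 40th percentile were left out, which kept 5244. Tissue was fitted with condition as a term, and the 4 retina groups in 1 model, by limma's moderated linear model (version 3.58.1, under R 4.3.3; tests two-sided; p-values adjusted by Benjamini-Hochberg over all 5244; threshold 0.05). The test was first tried on simulated data, whose outcome is not given here. Their spread was taken from retina arrays other than those of CT12, so they did not cover an array like CT12 array 1. Precision is set by how many arrays each group has and by the spread between arrays.

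Members, lists and comparisons were chosen with earlier results of these data known. Values are printed for up to 15 higher and 15 lower members between tissues, for the 5 smallest p-values in each retina comparison, for the photoreceptor cascade members and for the 6 largest differences among list genes, and a gene with several probe sets is counted by its brightest. The 2 largest gene differences in each direction and Pde4d were chosen for printed promoters after their values were seen. Same-numbered retina arrays deviated together in some pairs only: 5 of 18 pairs had a correlation over 0.1 (range -0.413 to 0.414). Every pair of arrays numbered 1 had a positive correlation (0.004 to 0.414). The numbers were not used to pair arrays in the main fit.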

Additional observations from a re-analysis of the deposited data

Results flagged for a closer look

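Of 60 groups of values screened for a lone array, 5 had one further from the rest than Dixon's 95% critical value allows, and chance alone flags about 1 in 20. Pineal ZT12, the array with the doubtful hour label, was the low one of 4 pineal arrays for Gnaz on J03773_s_at (7.31) and for Prkacb on D10770_s_at (7.50). CT6 array 3 was the high one of the 6 hour 6 retina arrays for Prkacb on D10770_s_at (11.77). Among the 6 CT retina arrays, CT12 array 1 was the low one for Prkar1b (11.79) and the high one for Prkaca on X57986mRNA_r_at (12.71).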

How the results depend on the processing

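Between tissues, 37 to 47 members passed when each array was left out in turn, and 31 of the 40 passed under every alternative they entered. With the 60th percentile as the limit, 24 of 35 tested members passed. For these tissue fits, and for those by source label below, the share of all probe sets is not given, so the counts describe members only. Within the retina, leaving out each array in turn gave 0 to 2 members in ZT12 minus ZT6, 0 to 17 in CT12 minus CT6, 0 to 20 in CT12 minus ZT12 and 0 to 2 in hour 12 minus hour 6. Array weights gave CT12 array 1 the lowest weight (0.0839), and with them 3 members passed in ZT12 minus ZT6, 12 in CT12 minus CT6, 17 in CT12 minus ZT12, 3 in hour 12 minus hour 6 and 7 in the difference between hour effects, where 3.85%, 14.3%, 16.4%, 8.52% and 8.07% of all probe sets passed. Scaling to a common median and a trended robust prior each gave 1 member in CT12 minus ZT12, and the share of all probe sets in these fits is not given. For these the cause was not tested. Over the 75 single probe set results followed through every alternative, not over all members, significance was gained under 31 combinations of result and alternative and lost under 24, and none changed direction past the threshold. Added after seeing the data, the source label as a term gave 40 members between tissues and arrays labelled eye alone 36.

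With the replicate number as a block, which the labels do not say marks a shared animal, 0 members passed in each of the 7 retina comparisons, as without it.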

Other observations

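Of the 30 member probe sets under the limit for testing, 13 passed between tissues when fitted with no limit (43.3%, against 61.1% of all probe sets in that fit). Higher in the pineal were Rgs9, Pde7a (1.69 ± 0.20, SE), Rgs18 (1.98 ± 0.43), Adcy4 (1.85 ± 0.31), Pde4c on L27061_at (1.17 ± 0.25) and Prkg2, the type II cyclic GMP-dependent kinase (0.81 ± 0.21). Lower were Akap12 on U41453_at (-3.57 ± 0.23), the olfactory alpha subunit Gnal (-1.84 ± 0.38), Gucy2f (-2.17 ± 0.60), the cyclic GMP phosphodiesterase Pde5a on D89093_at (-1.20 ± 0.33), Pde4d on L27059_s_at (-1.20 ± 0.49), Pde4a on M25348_s_at (-0.85 ± 0.27) and Adcy5 on rc_AI044848_s_at (-0.71 ± 0.29). Pde4d on L27059_s_at thus lay on the other side of 0 from L27060_at, at 7.46, 7.93, 4.84 and 5.10 at CT12, ZT12, CT6 and ZT6 in the pineal and 6.51 to 8.41 in the retina. These values are near the dim end of the array.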
